A study of Mus musculus with 36 samples.

Results

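Vesicle exocytosis was followed through 38 genes in 3 cell populations sorted from mouse skeletal muscle. The genes were taken by symbol from a set list and comprise 14 synaptotagmins, 4 members of the SNAP-25 family, 7 vesicle-associated membrane proteins (VAMPs), 7 syntaxins, 4 syntaxin-binding proteins and 2 complexins. All 38 were found among the 52636 genes of the count table. The populations were double-labeled NG2DsRed+/S100GFP+ cells, which the study identifies as perisynaptic Schwann cells (PSCs), the glia that cap the neuromuscular junction, single-labeled S100GFP+ cells and single-labeled NG2DsRed+ cells.

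Every mouse carried both transgenes of the S100β-GFP;NG2-dsRed cross, so the controls differed from PSCs in which reporter a sorted cell showed and not in genotype or treatment. GFP is driven by S100b regulatory sequence, S100b being a calcium-binding protein of Schwann cells, and dsRed by that of Cspg4, which encodes the proteoglycan NG2 of pericytes and glial precursors. The muscles were diaphragm, pectoralis, forelimb and hindlimb from juvenile, untreated mice, and the cells from 1 mouse made 1 replicate. The study's methods give an age of postnatal day 15 to 21. The labels also start at day 15, but their upper age rises with the library number from day 21 to 46 and was not used. Of 36 labelled samples the table holds 27: 9 of 12 PSC libraries, 8 of 12 S100GFP+ libraries and 10 of 12 NG2DsRed+ libraries. The S100GFP+ libraries are 1 more than the replicates counted in the series' design text, and which library that count omits is not known here.

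Exocytosis is the fusion of a vesicle with its target membrane. A SNARE on the vesicle (a VAMP) zips together with a syntaxin and a SNAP-25-type protein on the target, Sec1/Munc18-type syntaxin-binding proteins guide that assembly, complexins clamp or promote it, and many synaptotagmins couple it to calcium. Neurons use Syt1, Syt2, Vamp1, Vamp2, Stx1a and Snap25 for fast transmitter release, while most other cells use Snap23, Vamp3, Stx4 and relatives for secretion and membrane traffic, and PSCs are known to sense and tune transmission at the neuromuscular junction.

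Levels are given as CPM, a gene's counts divided by its library's total in units of 1e+06 counts, after scaling of library sizes by trimmed mean of M values. Library totals ran from 5334916 to 9592875 counts in PSCs, 5221655 to 9411399 in S100GFP+ cells and 5712256 to 7918320 in NG2DsRed+ cells. S100b averaged 255 CPM in PSCs, 29.4 in S100GFP+ cells and 6.54 in NG2DsRed+ cells, and Cspg4 averaged 689, 71.0 and 665 CPM, so both driver genes were high in PSCs. The Schwann lineage gene Sox10 (506, 20.2 and 4.45 CPM) was low in the S100GFP+ libraries. There 10 fibroblast markers summed to 20300 to 46260 CPM. Their sum was 861 to 3103 CPM in PSCs and 3148 to 21030 CPM in NG2DsRed+ cells, which overlapped the S100GFP+ libraries at the top. The leukocyte gene Ptprc averaged 294 CPM in S100GFP+ cells against 2.32 in NG2DsRed+ cells. The 10 markers of myelinating Schwann cells summed to 1554 to 3750 CPM in S100GFP+ cells. Their sum was 2586 to 3526 CPM in PSCs and 312 to 1091 CPM in NG2DsRed+ cells. Libraries 14, 17 and 22 of the S100GFP+ group stood apart, with counts on 412, 686 and 1047 olfactory receptor genes against 95 to 187 in the other S100GFP+ libraries, and so did PSC library 18, with the fewest genes with counts (14616). In sorted bulk RNA, fewer cells of a type and less RNA per cell cannot be told apart.

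Of the 38 genes, 25 passed the filter on low counts and entered the test, and 13 did not. Snap25 and Syt1 ranked between 34 and 37 of the 38 genes per kilobase of exon in each group, whereas Vamp2, also used by neurons, ranked 7 in PSCs. Snap25, the neuronal target SNARE, had 43 counts in all 9 PSC libraries together, of which 40 lay in library 36, then 26 counts in S100GFP+ libraries, all in libraries 14, 17 and 22, and 8 in NG2DsRed+ libraries. Syt1, the main calcium sensor of synaptic vesicles, had 12, 35 and 9 counts in the 3 groups. The 14 markers of neurons and axons summed to 3.50 to 17.3 CPM in PSCs, 12.6 to 43.8 in S100GFP+ cells and 27.7 to 56.9 in NG2DsRed+ cells. Most of the NG2DsRed+ sum was Stmn2, a tubulin-binding protein of growing axons, at 22.7 to 46.9 CPM, and Nefm, a neurofilament subunit, reached 14.0 CPM in S100GFP+ cells, where it was above NG2DsRed+ cells by 4.08 ± 0.72 on the log2 scale (SE, edgeR adjusted p = 4.20e-05). Chat, which makes acetylcholine in motor neurons, had 0 counts in PSC and NG2DsRed+ libraries and 8 in S100GFP+ libraries.

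The other members below the filter were Syt3, Syt4, Syt5, Syt6, Syt12, Syt13, Syt16, Syt17, Vamp5, Vamp8 and Cplx1, with group means from 0 to 1.82 CPM. Syt4, a synaptotagmin of dense core vesicles that does not bind calcium as Syt1 does, was the highest of them in PSCs: 0.130 to 6.13 CPM, with 131 counts in 9 of 9 libraries, against 0.250 to 1.66 CPM in S100GFP+ cells and 0 to 0.463 CPM in NG2DsRed+ cells. When no filter was applied, the Syt4 difference between PSCs and NG2DsRed+ cells was 3.18 ± 0.73 on the log2 scale (SE, edgeR adjusted p = 0.00104), and between PSCs and S100GFP+ cells 1.04 ± 0.70 (adjusted p = 0.255). Syt16 had 0 counts in the 65827883 counts of PSCs and in the 68142497 of NG2DsRed+ cells, which allows up to 0.0456 and 0.0440 CPM, and 19 counts in 5 of 8 S100GFP+ libraries. All 19 Syt6 counts of PSCs lay in library 36, the library with most of the Snap25 counts.

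Differences between groups were tested in 1 edgeR quasi-likelihood fit over the 27 libraries, with p-values adjusted over all 15330 genes tested, and are given as log2 fold changes ± SE. The 3 comparisons share libraries, so their counts are not independent of each other. Between PSCs and S100GFP+ cells 15 of the 25 tested members passed at an adjusted p of 0.05 (60%) beside 47% of all genes tested: 4 were higher in PSCs (Cplx2, Syt11, Syt9 and Vamp2) and 11 lower (Snap23, Snap29, Stx3, Stx4a, Stx7, Stxbp2, Stxbp3, Stxbp5, Stxbp6, Syt7 and Vamp4), where 22.9% of all genes were higher and 24.1% lower. Between PSCs and NG2DsRed+ cells 12 passed (48%, beside 44% of all genes), 4 higher (Stxbp2, Syt11, Syt9 and Vamp2) and 8 lower (Snap23, Snap29, Stx12, Stx3, Stxbp6, Syt15, Syt7 and Vamp3). Of all genes, 20.9% were higher and 23.1% lower in PSCs in that comparison. Between the single-labeled groups 14 passed (56%, beside 33.3%), where 18.1% of all genes were higher in S100GFP+ cells and 15.2% lower. The 9 higher members were Snap23, Snap29, Stx7, Stxbp2, Stxbp3, Stxbp6, Syt11, Syt9 and Vamp4, and the 5 lower were Cplx2, Stx12, Stx1a, Syt15 and Vamp3.

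The median log2 fold change of the 25 members was -0.49 for PSCs against S100GFP+ cells, where the median of all genes was 0.04, and -0.15 against NG2DsRed+ cells, where it was 0.02. Without S100GFP+ libraries 14, 17 and 22 the PSC and S100GFP+ comparison had 6 members higher and 8 lower, and without PSC library 18 as well, a choice made after seeing the data, 6 higher and 9 lower. Over all genes, 3621 of 16216 tested were higher and 3257 lower in the first of these fits. In the second, 4212 of 16176 were higher and 3587 lower. With all libraries it was 3511 of 15330 higher and 3687 lower, so the balance over all genes also moved toward higher in PSCs. The plot of fold changes shows that the synaptotagmins and Stxbp2 moved furthest in both directions while most VAMPs and syntaxins lay near 0.

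**Figure D1:**
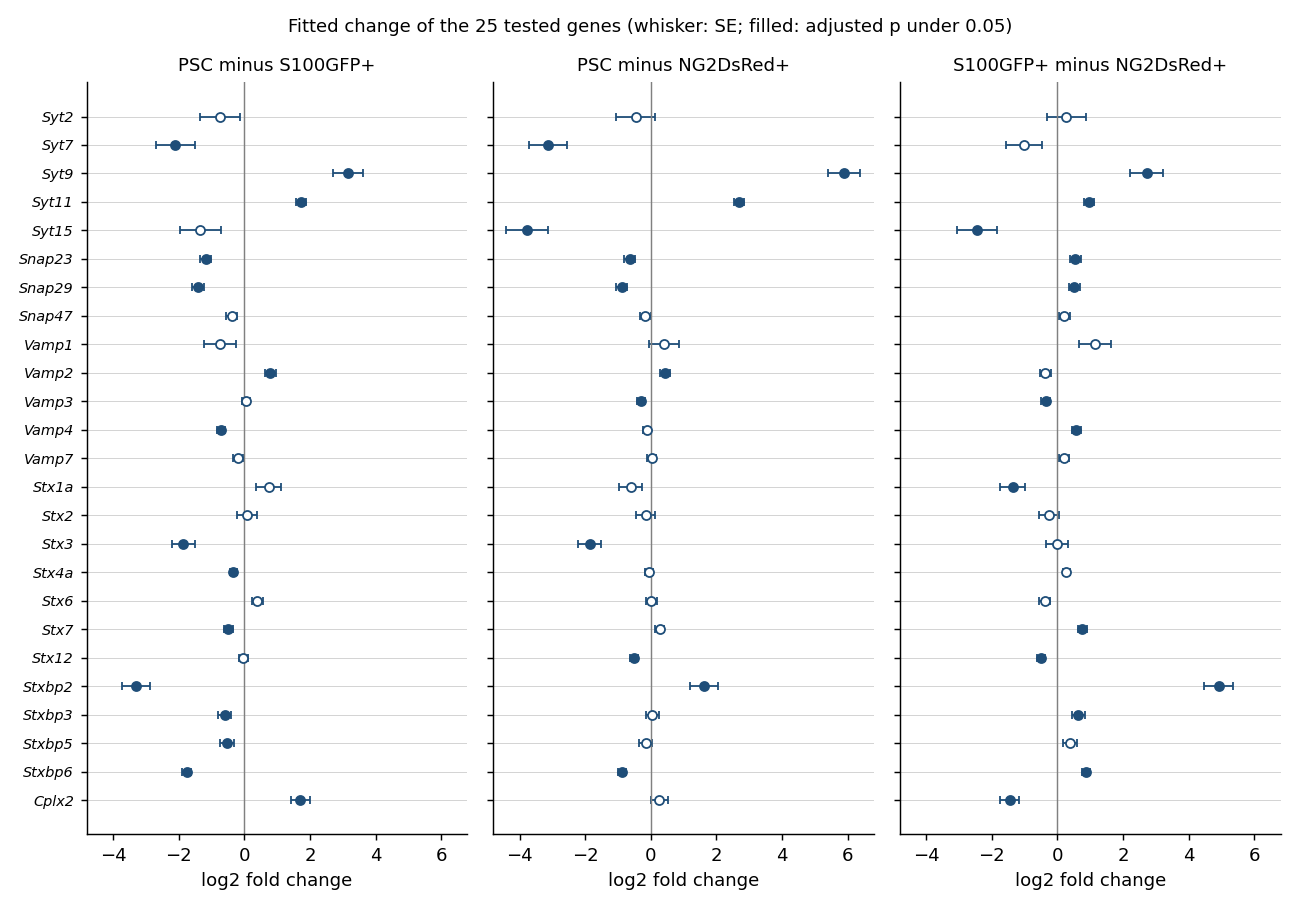
Fitted log2 fold change of each of the 25 tested genes (rows) in the 3 comparisons (panels), with whiskers of 1 SE and filled points where the adjusted p was under 0.05. Syt9 reached 3.16 and 5.88 in PSCs against S100GFP+ and NG2DsRed+ cells, and Stxbp2 lay at -3.29 and 1.62.

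Among the synaptotagmins, Syt11 and Syt9 were higher in PSCs than in both other groups. Syt11 lacks calcium binding and acts in membrane traffic, and Syt9 is a fast calcium sensor related to Syt1 and Syt2. Their genes lie at chr3:88744700-88775164 on the minus strand and chr7:107370728-107548656 on the plus strand (GRCm38). Syt11 made up 69.6 to 91.4% of the synaptotagmin level per kilobase of exon in PSCs, with a median of 76.7%, and Syt9 3.65 to 23.8%. In S100GFP+ cells the Syt11 share had nearly the same median, 76.2%, at 33.5 to 82.9%, and the Syt9 share ran from 2.06 to 5.93%.

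In PSCs Syt9 ran from 3.73 to 28.4 CPM with a median of 12.6. It ran from 0.666 to 2.47 CPM with a median of 1.39 in S100GFP+ cells, and from 0 to 0.634 CPM with a median of 0.201 in NG2DsRed+ cells. Every PSC library was above every other library, and the S100GFP+ libraries were all above the NG2DsRed+ libraries. The fitted level in PSCs was 8.93-fold that of S100GFP+ cells (log2 3.16 ± 0.45, adjusted p = 8.63e-07) and 59.1-fold that of NG2DsRed+ cells (log2 5.88 ± 0.49, adjusted p = 6.12e-11), where only 14 counts of Syt9 were found in all. PSC library 18 was the highest of its group, and without any 1 library the change against S100GFP+ cells stayed between 2.98 and 3.30.

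Syt11 ran from 67.6 to 149 CPM in PSCs with a median of 95.1. It ran from 22.9 to 37.0 CPM in S100GFP+ cells with a median of 30.2, and from 11.4 to 21.2 CPM in NG2DsRed+ cells with a median of 15.2. The 3 groups did not overlap, with PSCs highest and NG2DsRed+ cells lowest. PSCs were 3.28-fold above S100GFP+ cells (log2 1.71 ± 0.15, adjusted p = 1.67e-10) and 6.43-fold above NG2DsRed+ cells (log2 2.68 ± 0.15, adjusted p = 7.87e-15), and S100GFP+ cells were above NG2DsRed+ cells by 0.97 ± 0.15 (adjusted p = 4.33e-06).

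Syt7 and Syt15 were low in PSCs. Syt7 is a high-affinity calcium sensor of slow and lysosomal exocytosis, and Syt15 is a synaptotagmin without calcium binding. Syt7 ran from 0 to 2.82 CPM in PSCs with a median of 0.946, from 0.831 to 20.3 CPM in S100GFP+ cells with a median of 2.71, and from 5.02 to 18.6 CPM in NG2DsRed+ cells with a median of 12.7. All PSC libraries were below all NG2DsRed+ libraries (log2 -3.12 ± 0.58, adjusted p = 6.08e-05), whereas the S100GFP+ libraries overlapped both groups.

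The S100GFP+ libraries with the most Syt7 were the 3 that stood apart: 20.3 CPM in library 17, 10.5 in library 22 and 8.82 in library 14, against 0.831 to 3.92 in the other 5. With them, Syt7 was lower in PSCs than in S100GFP+ cells (log2 -2.10 ± 0.59, adjusted p = 0.00426), and without them the change was -0.22 (adjusted p = 0.771). That call was also lost in limma-voom (-1.22, adjusted p = 0.127) and with the Lars2, Gm23935 and Gm15564 share as a term (-1.53, adjusted p = 0.0801). The same 3 libraries held 3858, 2144 and 1141 CPM of the 10 endothelial markers summed, against 154 to 260 CPM in the other 5 S100GFP+ libraries, 235 to 957 in PSCs and 2163 to 5240 in NG2DsRed+ cells. The part of the endothelial genes in the Syt7 levels was not tested.

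Syt15 (chr14:34219595-34230420, plus strand) ran from 0.104 to 2.72 CPM in PSCs with a median of 1.53, from 0 to 12.3 CPM in S100GFP+ cells with a median of 0.927, and from 4.37 to 39.1 CPM in NG2DsRed+ cells with a median of 18.6. PSCs lay below every NG2DsRed+ library (log2 -3.77 ± 0.63, adjusted p = 1.34e-05). S100GFP+ cells were below NG2DsRed+ cells as well (log2 -2.44 ± 0.62, adjusted p = 0.00244), and their 3 highest libraries were again 22, 17 and 14, with 12.3, 8.51 and 5.47 CPM. Without those 3 the Syt15 change between the single-labeled groups was -4.94 (adjusted p = 4.26e-07). The change of Syt15 between PSCs and S100GFP+ cells was -1.33 ± 0.63 with all libraries (adjusted p = 0.0838) and 1.19 without those 3 (adjusted p = 0.110), so its sign turned without passing the test either way. Syt15 passed as lower in PSCs in DESeq2 with all libraries (-1.37, adjusted p = 0.0474), and in edgeR with S100GFP+ library 33 alone left out. Between the single-labeled groups Syt7 did not pass with all libraries (log2 -1.02 ± 0.55, adjusted p = 0.164) and was lower in S100GFP+ cells without those 3 (-2.86, adjusted p = 2.99e-04).

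**Figure D2:**
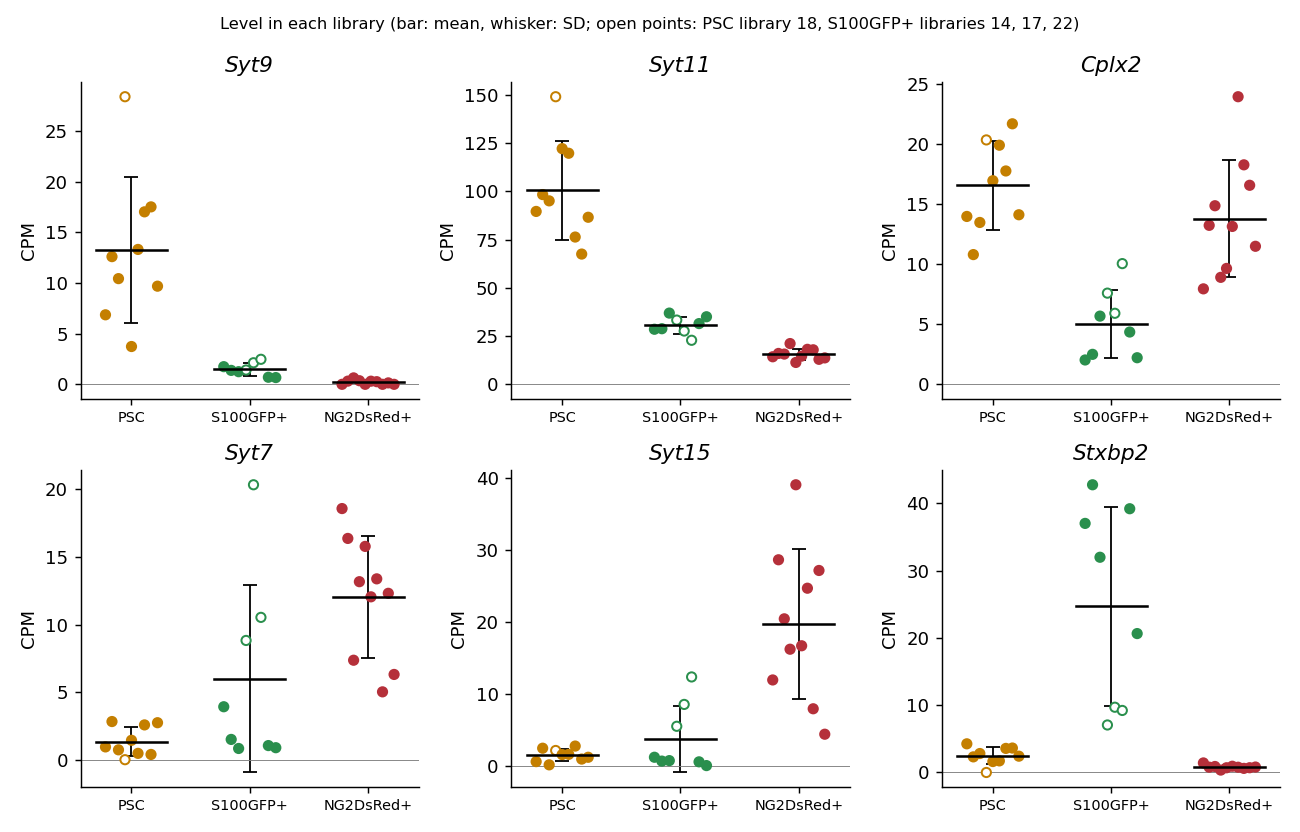
CPM of 6 genes in each library (1 point a library), with bars for the group mean and whiskers for the SD, and open points for PSC library 18 and S100GFP+ libraries 14, 17 and 22. Syt9 and Syt11 were highest in every PSC library, and the S100GFP+ libraries split in Syt7, Syt15 and Stxbp2 along the open and filled points.

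Syt2, the calcium sensor that motor nerve terminals use, averaged 0.894 CPM in PSCs, 1.53 in S100GFP+ cells and 1.25 in NG2DsRed+ cells, and no difference passed the test (adjusted p from 0.339 to 0.768). Summed per kilobase of exon, the 14 synaptotagmins reached 18.5 to 37.8 CPM per kilobase in PSCs, 6.69 to 13.1 in S100GFP+ cells and 5.70 to 12.8 in NG2DsRed+ cells, with no overlap of PSCs and the other groups. In NG2DsRed+ cells Syt15 and Syt11 each made a large part of that sum, 14.8 to 59.0% and 17.1 to 46.3%.

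Promoter windows show what the starts of these genes look like. RefSeq windows of GRCm38.p6 were matched for 28 of the 38 members and searched, over the 250 bases before the start and on both strands, for the GC box GGGCGG and the SOX-type core ACAAAG. The windows of the members were richer in G and C than those of all genes, with medians of 62.2 and 52.0% and of 15.5 and 6 CG dinucleotides. The GC box was in 18 of 28 members (64.3%) and 32.9% of 27025 genes, and ACAAAG in 3 of 28 (10.7%), namely Stx7, Syt16 and Vamp8, and 16.5% of genes. The 27025 genes were not limited to those that passed the filter on low counts. Nothing particular to exocytosis genes is therefore read from these shares and medians. The windows of Syt9, the member with the largest rise in PSCs, and of Snap23 and Stx3, both lower in PSCs than in either other group, are printed 5′ to 3′ as far as they hold no annotated exon, with GC boxes in capitals. Over the 28 windows Syt9 had the highest G and C content, at 80.4%, and Stx3 the lowest, at 42.0%. They lie at chr7:107370540-107370727 (plus strand, Syt9, ending 62 bases before the RefSeq start), chr2:120567421-120567670 (plus strand, Snap23) and chr19:11819404-11819653 (minus strand, Stx3).
Syt9: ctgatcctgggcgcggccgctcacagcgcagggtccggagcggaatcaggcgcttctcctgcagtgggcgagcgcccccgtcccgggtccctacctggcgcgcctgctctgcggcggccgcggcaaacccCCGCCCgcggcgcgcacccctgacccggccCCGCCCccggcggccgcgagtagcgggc
Snap23: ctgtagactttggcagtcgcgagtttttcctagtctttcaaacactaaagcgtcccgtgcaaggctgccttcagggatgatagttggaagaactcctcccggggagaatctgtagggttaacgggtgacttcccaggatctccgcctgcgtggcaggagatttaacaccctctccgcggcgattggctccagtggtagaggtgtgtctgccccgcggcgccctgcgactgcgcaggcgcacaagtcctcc
Stx3: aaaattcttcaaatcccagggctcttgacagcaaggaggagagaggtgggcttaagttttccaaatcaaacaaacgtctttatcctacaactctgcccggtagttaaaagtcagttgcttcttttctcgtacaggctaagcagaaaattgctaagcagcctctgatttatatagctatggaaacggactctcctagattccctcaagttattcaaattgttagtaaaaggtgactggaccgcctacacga
The 188 bases of Syt9 held 29 CG dinucleotides and 2 GC boxes at 79.8% G and C, the 250 bases of Snap23 17 CG and no GC box at 58.4%, and those of Stx3 6 CG and no GC box at 42.0%. The windows of Snap29 and Stxbp6, which were also lower in PSCs than in both other groups, had 76.8 and 65.2% G and C with 26 and 12 CG dinucleotides. That of Syt11, which like Syt9 was higher in PSCs than in both other groups, had 51.2% with 9 CG dinucleotides.

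Of the target-side SNAREs that partner syntaxins, Snap23 is the widely used relative of Snap25, and Snap29 acts in endosomes and autophagosomes. Both were lowest in PSCs and highest in S100GFP+ cells. Snap23 averaged 26.5 ± 7.14 CPM (SD) in 9 PSC libraries, 60.1 ± 16.6 in 8 S100GFP+ libraries and 41.3 ± 6.05 in 10 NG2DsRed+ libraries (PSCs against S100GFP+ cells log2 -1.18 ± 0.17, adjusted p = 1.56e-06; against NG2DsRed+ cells -0.64 ± 0.16, adjusted p = 0.00207). Snap29 averaged 12.1 ± 3.93, 32.1 ± 6.22 and 22.4 ± 3.31 CPM (log2 -1.40 ± 0.18, adjusted p = 1.37e-07, and -0.88 ± 0.17, adjusted p = 8.86e-05).

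Snap29 in PSCs lay below every S100GFP+ library, 5.61 to 19.7 against 21.2 to 42.0 CPM, while Snap23 overlapped. Snap47, of which 11.6% of the exons overlap Jmjd4 on the opposite strand, averaged 14.4, 18.9 and 16.2 CPM and did not pass (adjusted p = 0.0636 for PSCs against S100GFP+ cells). That difference passed in DESeq2 (log2 -0.40, adjusted p = 0.0374), and in edgeR without S100GFP+ library 17 or PSC library 23. Snap23 made up 27.9 to 48.6% of the family's level per kilobase in PSCs and 37.6 to 52.7% in S100GFP+ cells. The summed level of the family ran from 8.87 to 18.0 CPM per kilobase in PSCs, where library 18 was lowest, 22.1 to 38.8 in S100GFP+ cells and 17.3 to 25.1 in NG2DsRed+ cells.

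Of the 5 VAMPs tested, 2 passed in each comparison (40%), beside 47, 44 and 33.3% of all genes tested. Vamp3, or cellubrevin, the broadly used vesicle SNARE, was the highest of the 38 genes per kilobase in each group, at 29.6 ± 4.94 (SD), 28.6 ± 3.13 and 36.5 ± 6.58 CPM per kilobase, and its share of the VAMP level was 43.3 to 58.3% in PSCs. Its change was 0.05 ± 0.13 between PSCs and S100GFP+ cells (adjusted p = 0.774) and -0.30 ± 0.12 between PSCs and NG2DsRed+ cells (adjusted p = 0.0482), a call lost in 21 of 27 fits that each left out 1 library, the most without PSC library 18 (log2 -0.17, adjusted p = 0.213). Vamp3 was also lower in S100GFP+ than in NG2DsRed+ cells (log2 -0.35 ± 0.13, adjusted p = 0.0330). That call was lost in 13 of the 27 fits and without the 3 S100GFP+ libraries that stood apart (-0.39, adjusted p = 0.0582).

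Vamp2, the main neuronal synaptobrevin that many other cells also use, averaged 45.3 ± 13.0 CPM in PSCs, 26.2 ± 6.02 in S100GFP+ cells and 33.7 ± 4.57 in NG2DsRed+ cells. It was higher in PSCs than in S100GFP+ cells (log2 0.79 ± 0.16, adjusted p = 1.96e-04) and in NG2DsRed+ cells (0.42 ± 0.15, adjusted p = 0.0235), with overlapping ranges. The call against NG2DsRed+ cells was lost without PSC library 23 (log2 0.37, adjusted p = 0.0526), in limma-voom (0.21, adjusted p = 0.131) and without the filter (0.42, adjusted p = 0.0902). Vamp1 stood at 2.41, 4.07 and 1.83 CPM with no difference past the edgeR test on all libraries. Between the single-labeled groups it passed as higher in S100GFP+ cells in DESeq2 (log2 1.21, adjusted p = 0.0277) and limma-voom (1.60, adjusted p = 0.00924). It also passed there in the compared groups alone (1.16, adjusted p = 0.0362).

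Vamp4, a SNARE of the trans-Golgi network and endosomes, was lower in every PSC library (17.5 to 26.9 CPM) than in every S100GFP+ library (28.1 to 50.3 CPM, log2 -0.71 ± 0.13, adjusted p = 4.51e-05). It stood at 18.3 to 29.6 CPM in NG2DsRed+ cells, which did not differ from PSCs past the test (adjusted p = 0.431). Vamp7, a SNARE of late endosomes and lysosomes, averaged 20.5, 23.5 and 20.2 CPM, with changes from -0.19 to 0.22 in the 3 comparisons (lowest adjusted p = 0.301). The VAMP sums overlapped throughout, at 47.2 to 70.8, 49.6 to 58.7 and 48.8 to 67.0 CPM per kilobase.

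**Figure D3:**
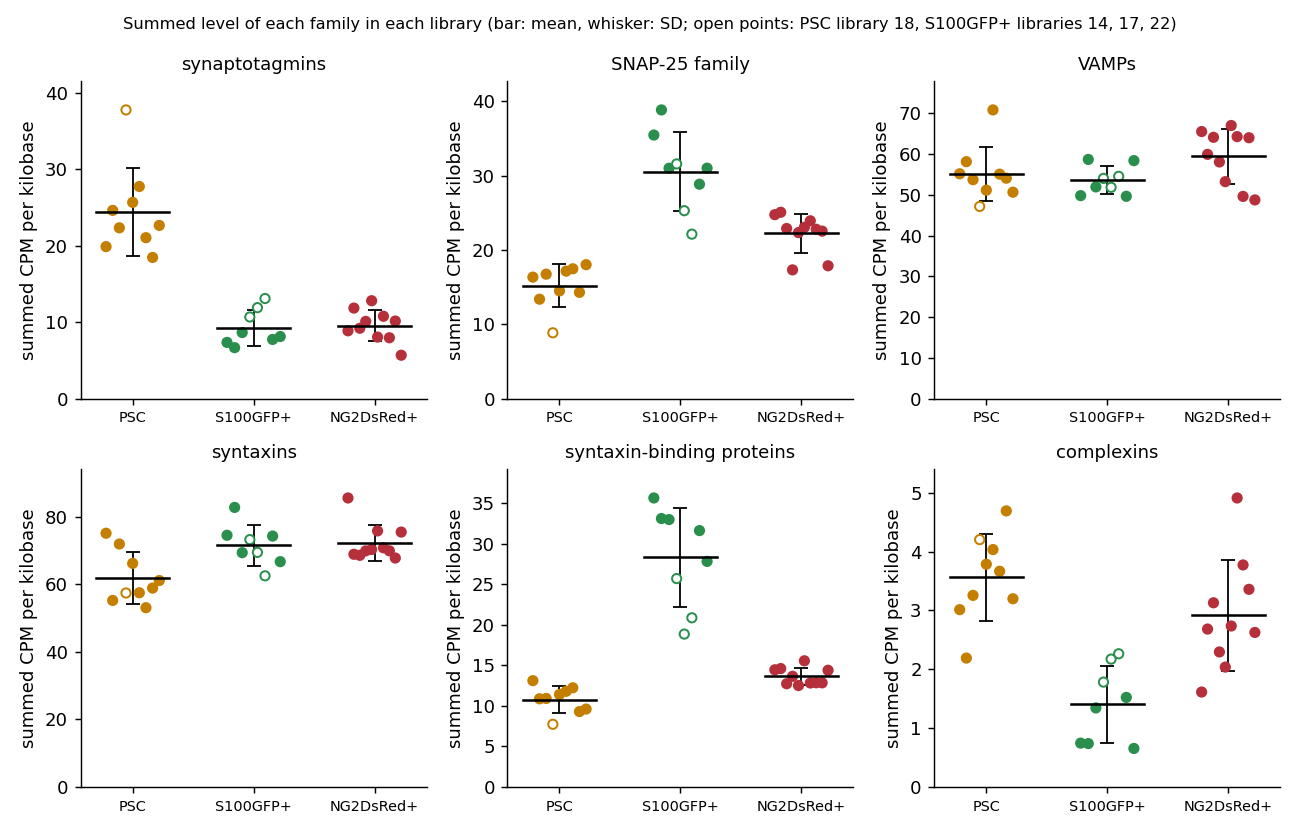
Summed level of each of the 6 families in each library, in CPM per kilobase of exon, with bars for the mean, whiskers for the SD and open points for PSC library 18 and S100GFP+ libraries 14, 17 and 22. The synaptotagmin sums of PSCs (18.5 to 37.8) lie above both other groups, their SNAP-25 family sums (8.87 to 18.0) lie below the S100GFP+ libraries, and the VAMP sums overlap.

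Of the syntaxins, Stx3 set PSCs apart. Stx3, a plasma membrane syntaxin of polarized epithelia and ribbon synapses, ran from 0 to 13.1 CPM in PSCs, where library 18 had none, 15.1 to 36.2 in S100GFP+ cells and 14.5 to 36.0 in NG2DsRed+ cells. No PSC library reached the other groups, and PSCs were 3.61-fold below S100GFP+ cells (log2 -1.85 ± 0.36, adjusted p = 9.50e-05) and 3.65-fold below NG2DsRed+ cells (log2 -1.87 ± 0.35, adjusted p = 5.95e-05).

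The plasma membrane syntaxin Stx4a averaged 31.7, 39.8 and 32.9 CPM and was lower in PSCs than in S100GFP+ cells by a small amount (log2 -0.33 ± 0.12, adjusted p = 0.0203). That call was lost without PSC library 18 (log2 -0.26) or 36 (adjusted p = 0.0679), S100GFP+ library 11 or NG2DsRed+ library 2. It was also lost without the 3 S100GFP+ libraries that stood apart (-0.24, adjusted p = 0.168), without the filter (adjusted p = 0.171) and in limma-voom (-0.27, adjusted p = 0.0504). Stx7, an endosomal syntaxin, averaged 58.0 ± 6.60, 81.3 ± 23.9 and 47.9 ± 5.59 CPM and was higher in S100GFP+ cells than in PSCs (log2 -0.49 ± 0.14 for PSCs minus S100GFP+, adjusted p = 0.00578) and than in NG2DsRed+ cells (0.76 ± 0.14, adjusted p = 6.75e-05). Stx12, the endosomal syntaxin also called syntaxin 13, was highest in NG2DsRed+ cells, at 69.8 ± 11.3 CPM against 48.8 ± 6.71 in PSCs (log2 -0.52 ± 0.12, adjusted p = 9.76e-04) and 49.7 ± 9.11 in S100GFP+ cells (-0.49 ± 0.13, adjusted p = 0.00326).

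Stx1a, the neuronal plasma membrane syntaxin, averaged 4.36 CPM in PSCs, 2.61 in S100GFP+ cells and 6.66 in NG2DsRed+ cells. It was lower in S100GFP+ than in NG2DsRed+ cells (log2 -1.37 ± 0.37, adjusted p = 0.00508) and did not pass between PSCs and S100GFP+ cells (0.75 ± 0.38, adjusted p = 0.105). Its 3 highest S100GFP+ values were in libraries 17, 22 and 14 (5.68, 4.77 and 3.18 CPM of Stx1a), and without those 3 libraries PSCs were above S100GFP+ cells by 1.63 (adjusted p = 0.00178). The Golgi syntaxin Stx6 averaged 36.4, 27.7 and 36.0 CPM, with 0.40 ± 0.17 between PSCs and S100GFP+ cells (adjusted p = 0.0571), and 0.52 without the same 3 libraries (adjusted p = 0.0353).

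Stx2, or epimorphin, a plasma membrane syntaxin, varied within each group more than between groups: 20.7 to 122 CPM in PSCs, 42.8 to 88.0 in S100GFP+ cells and 39.6 to 124 in NG2DsRed+ cells, with adjusted p from 0.585 to 0.835. The spread moved with the share of each library's counts on Lars2, Gm23935 and Gm15564, which ran from 3.64 to 36.6% in PSCs, 19.5 to 39.1% in S100GFP+ cells and 12.5 to 40.0% in NG2DsRed+ cells. PSC libraries 12, 4 and 20 had 122, 105 and 88.8 CPM of Stx2 at shares of 8.55, 9.66 and 6.95%, and libraries 23, 6 and 31 had 20.7, 29.3 and 30.5 CPM at shares of 36.6, 31.5 and 31.6%. In NG2DsRed+ cells library 28 had 124 CPM at 12.5%, and libraries 30 and 15 had 39.6 and 39.8 CPM at 36.3 and 40.0%. The highest and lowest S100GFP+ libraries, 27 and 33, had 88.0 and 42.8 CPM at 22.5 and 33.0%. The lowest shares of PSCs and S100GFP+ cells, 3.64 and 19.5%, were in libraries 36 and 11, which were not the highest in Stx2.

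With that share as a term in the fit, Stx2 was lower in PSCs than in S100GFP+ cells (log2 -0.83, adjusted p = 9.22e-05) and than in NG2DsRed+ cells (-0.90, adjusted p = 1.15e-05), where without it the changes were 0.09 ± 0.31 and -0.16 ± 0.29. PSC libraries 4, 12, 20 and 36 had shares of 3.64 to 9.66%, below every library of the other groups (from 12.5% up). The changes with the term therefore rest partly on shares that the other groups did not reach, and the same limit holds for other genes fitted with it. The summed level of the 7 syntaxins ran from 53.1 to 75.1 CPM per kilobase in PSCs, 62.5 to 82.8 in S100GFP+ cells and 67.8 to 85.6 in NG2DsRed+ cells.

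Among the syntaxin-binding proteins, all 4 passed as lower in PSCs than in S100GFP+ cells, where 24.1% of all genes tested were lower. The calls of Stxbp3 and Stxbp5 did not hold in every fit, as given below. Stxbp2, or Munc18-2 (chr8:3630955-3643644, plus strand), serves granule release in cytotoxic lymphocytes, mast cells, platelets and epithelia. It ran from 0 to 4.26 CPM in PSCs with a median of 2.42, 7.06 to 42.8 in S100GFP+ cells with a median of 26.3, and 0.356 to 1.42 in NG2DsRed+ cells with a median of 0.783. S100GFP+ cells lay above both other groups in every library, 9.79-fold above PSCs (log2 -3.29 ± 0.42 for PSCs minus S100GFP+, adjusted p = 1.43e-07) and 30.2-fold above NG2DsRed+ cells (log2 4.91 ± 0.45, adjusted p = 5.85e-10).

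PSCs were above NG2DsRed+ cells in Stxbp2 (log2 1.62 ± 0.43, adjusted p = 0.00249), where PSC library 18, with 0 counts, overlapped them. Within S100GFP+ cells, libraries 14, 22 and 17 had the least Stxbp2, with 7.06, 9.22 and 9.70 CPM, and the other 5 had 20.6 to 42.8 CPM. The summed level of 10 macrophage and leukocyte markers was 4127, 1357 and 2760 CPM in those 3 libraries, 6527 to 13020 in the other 5, 38.6 to 576 in PSCs and 18.1 to 82.1 in NG2DsRed+ cells, and all 10 markers were higher in S100GFP+ cells than in either other group. Their part in the Stxbp2 level was not tested. Without the 3 libraries the changes were -3.70 against PSCs (adjusted p = 9.96e-09) and 5.37 against NG2DsRed+ cells (adjusted p = 4.36e-11).

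**Figure D4:**
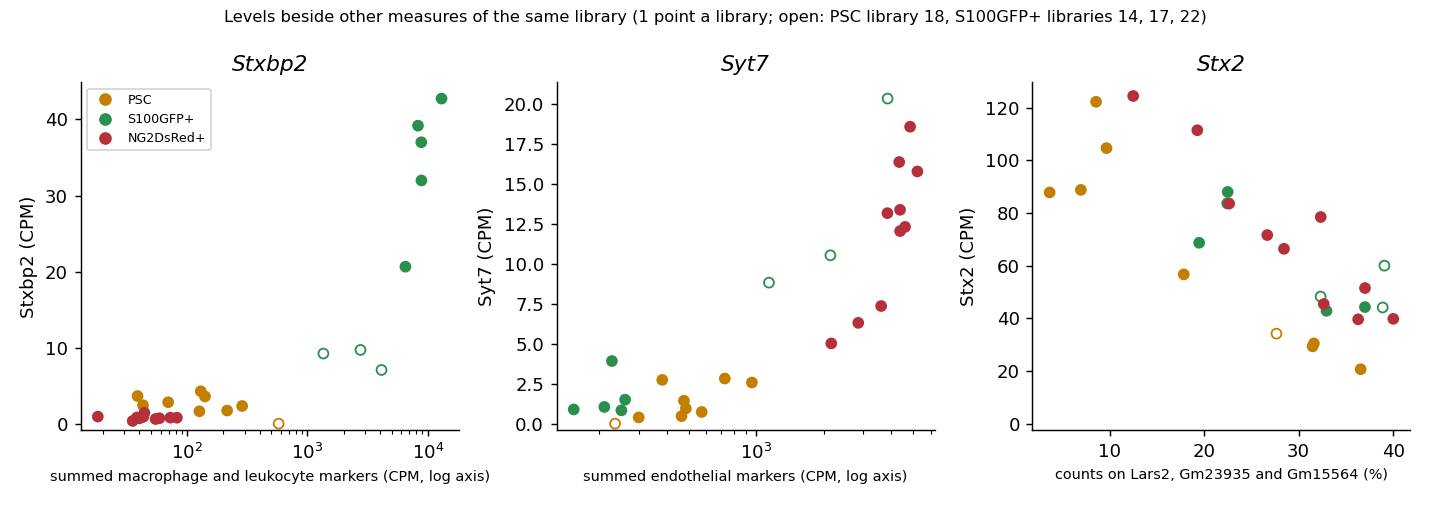
CPM of Stxbp2, Syt7 and Stx2 (vertical axes) in each library beside the summed CPM of 10 macrophage and leukocyte markers, that of 10 endothelial markers (log axes) and the percent of counts on Lars2, Gm23935 and Gm15564. Points are libraries, and open points are PSC library 18 and S100GFP+ libraries 14, 17 and 22. The S100GFP+ libraries with 6527 CPM or more of leukocyte markers have Stxbp2 from 20.6 CPM up, and those with 1141 CPM or more of endothelial markers have Syt7 from 8.82 CPM up. In PSCs, Stx2 runs from 20.7 CPM at a share of 36.6% to 122 CPM at 8.55%.

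Stxbp6, or amisyn, which binds syntaxins and keeps SNAREs from pairing, separated PSCs from both other groups: 15.2 to 28.5 CPM in PSCs, 49.7 to 78.5 in S100GFP+ cells and 28.6 to 49.8 in NG2DsRed+ cells. No PSC library reached either range, with the highest PSC and the lowest NG2DsRed+ library at 28.5 and 28.6 CPM (log2 -1.75 ± 0.13, adjusted p = 5.29e-12, and -0.89 ± 0.12, adjusted p = 8.92e-07). Stxbp3, or Munc18-3, the partner of Stx4, averaged 26.6 ± 8.44, 40.3 ± 11.1 and 26.0 ± 3.86 CPM and was lower in PSCs than in S100GFP+ cells (log2 -0.60 ± 0.21, adjusted p = 0.0194). That call was lost without S100GFP+ library 11 (adjusted p = 0.0793) and in the compared groups alone (log2 -0.61, adjusted p = 0.0516).

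Stxbp5, or tomosyn, an inhibitor of SNARE assembly, averaged 22.9 ± 10.4, 33.1 ± 9.20 and 25.4 ± 5.16 CPM. Its change between PSCs and S100GFP+ cells just passed (log2 -0.54 ± 0.22, adjusted p = 0.0436), and the call was lost in 10 of 27 fits that each left out 1 library and without the 3 S100GFP+ libraries that stood apart (-0.36, adjusted p = 0.232). It was also lost with the Lars2, Gm23935 and Gm15564 share as a term (-0.19, adjusted p = 0.424), without the filter (adjusted p = 0.0677) and in the compared groups alone (adjusted p = 0.0829). The summed level of the 4 genes ran from 7.73 to 13.1 CPM per kilobase in PSCs, 18.9 to 35.7 in S100GFP+ cells and 12.5 to 15.6 in NG2DsRed+ cells.

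Of the complexins, Cplx2 made up 83.9 to 100% of the level in PSCs. Complexins bind assembled SNAREs, and Cplx2 is the form also used outside neurons, as in mast cells. Cplx2 ran from 10.8 to 21.7 CPM in PSCs, 2.03 to 10.0 in S100GFP+ cells and 7.94 to 23.9 in NG2DsRed+ cells. PSCs lay above every S100GFP+ library (log2 1.71 ± 0.28, adjusted p = 1.12e-05), S100GFP+ cells were below NG2DsRed+ cells (-1.45 ± 0.28, adjusted p = 1.30e-04), and PSCs and NG2DsRed+ cells differed by 0.26 ± 0.25 (adjusted p = 0.435). The 9 mast cell markers summed to 1.03 to 8.53 CPM in PSCs, 5.95 to 46.5 in S100GFP+ cells and 2.59 to 22.5 in NG2DsRed+ cells. Most of that sum in PSCs and NG2DsRed+ cells was Kit, at 3.00 and 10.5 CPM on average, and Hdc, at 0.801 and 2.25 CPM. In S100GFP+ cells Kit and Hdc averaged 6.56 and 2.81 CPM. Cpa3, another of the 9, averaged 0 CPM in PSCs, 2.26 in S100GFP+ cells and 0.0599 in NG2DsRed+ cells.

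Beyond the 38 genes, 131 other genes of exocytosis were listed in 8 groups and 84 of them tested. Between PSCs and S100GFP+ cells 42 passed (50%, beside 47% of all genes), 18 higher and 24 lower, with a median log2 fold change of 0.04 beside 0.04 for all genes. Between PSCs and NG2DsRed+ cells 37 passed (44%, the same as the 44% of all genes), 16 higher and 21 lower, and between the single-labeled groups 32 passed (38.1%, beside 33.3%), 17 higher in S100GFP+ cells and 15 lower. The counts of the single groups are to be read against 22.9% of all genes higher and 24.1% lower in PSCs than in S100GFP+ cells, and with 5 to 18 genes tested a group nothing particular to a group is read from them. The genes named are, for each group, up to 3 with the largest change between PSCs and S100GFP+ cells among those past the test.

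Secretory Rabs and their effectors had 2 of 12 tested higher and 4 lower in PSCs against S100GFP+ cells. Rab27b, a GTPase that tethers secretory granules, averaged 10.6 CPM in PSCs, 1.67 in S100GFP+ cells and 0.804 in NG2DsRed+ cells (log2 2.67 ± 0.54, adjusted p = 1.46e-04, and 3.71 ± 0.52, adjusted p = 1.02e-06). Its paralog Rab27a averaged 0.964, 2.99 and 4.70 CPM and was lower in PSCs in both comparisons (log2 -1.60 ± 0.51, adjusted p = 0.0110, and -2.24 ± 0.50, adjusted p = 4.57e-04). Rab3il1, an exchange factor for Rab3 and Rab8, averaged 7.79 CPM in PSCs and 76.8 CPM in S100GFP+ cells (log2 -3.30 ± 0.26, adjusted p = 1.38e-11).

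Dense core granule proteins had 5 of 13 genes tested. Scg3, secretogranin III, averaged 55.5 ± 7.20 CPM in PSCs and 5.78 ± 3.78 in NG2DsRed+ cells (log2 3.26 ± 0.35, adjusted p = 9.61e-09), and was higher than in S100GFP+ cells by 1.11 ± 0.35 (adjusted p = 0.00990). Cpe, carboxypeptidase E, averaged 214 CPM in PSCs and 407 in NG2DsRed+ cells, above S100GFP+ cells (log2 1.35 ± 0.19, adjusted p = 5.24e-07) and below NG2DsRed+ cells (-0.92 ± 0.17, adjusted p = 6.45e-05). Pcsk1, a prohormone convertase, stayed at 0 to 0.403 CPM in PSCs against 3.09 to 31.2 CPM in NG2DsRed+ cells (log2 -6.24 ± 0.74, adjusted p = 5.73e-08).

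Of the other SNAREs 3 of 18 were higher in PSCs than in S100GFP+ cells and 5 lower. Stx8, an endosomal SNARE, averaged 44.8 ± 16.0 CPM in PSCs against 22.0 ± 5.23 in NG2DsRed+ cells (log2 1.02 ± 0.17, adjusted p = 1.26e-05) and was above S100GFP+ cells by 1.08 ± 0.18 (adjusted p = 1.34e-05). Stx11, which works with Stxbp2 in cytotoxic lymphocytes, was below S100GFP+ cells by -3.83 ± 0.33 (adjusted p = 1.02e-10), at 0.421 to 3.16 CPM in PSCs.

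Among other SNARE regulators 4 of 12 were higher and 2 lower. Vps45, the Munc18-type protein of endosomes, averaged 29.9 ± 15.7 CPM in PSCs and 11.3 ± 2.64 in NG2DsRed+ cells (log2 1.41 ± 0.24, adjusted p = 2.12e-05, and 1.21 ± 0.26 against S100GFP+ cells, adjusted p = 3.14e-04). Stxbp4 rose by 1.22 ± 0.23 against S100GFP+ cells (adjusted p = 5.81e-05) and Napb, a neuronal form of the NSF attachment protein that takes SNARE complexes apart, by 1.35 ± 0.48 (adjusted p = 0.0226). In the exocyst, which tethers vesicles to the plasma membrane, 3 of 9 subunits were higher, among them Exoc6b (0.81 ± 0.20) and Exoc7 (0.76 ± 0.17), and 1 lower, Exoc5 (log2 -0.51 ± 0.12).

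Of priming and active zone genes 3 of 10 were higher in PSCs than in S100GFP+ cells and 4 lower. The largest changes were those of Ppfia4 (-3.31 ± 0.48), Unc13c (-3.13 ± 0.74) and Unc13d (-3.03 ± 0.55), the last being Munc13-4, which primes granules in blood cells, and all 3 averaged under 1 CPM in PSCs. The C2-domain proteins Esyt1 (-1.57 ± 0.23), Sytl2 (-1.56 ± 0.37) and Myof (-1.35 ± 0.19) were lower in PSCs, and none of the 7 tested of that list was higher. Of vesicle membrane proteins 1 of 11 was higher, Syp or synaptophysin, at 2.59 to 23.8 CPM in PSCs (log2 1.90 ± 0.49, adjusted p = 0.00190), and 3 lower, among them Syn1 (-3.79 ± 0.69) and Sv2c (-2.80 ± 0.67), which averaged 0.322 and 0.513 CPM in PSCs.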

How the data were processed

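Cells were sorted by fluorescence, and RNA was amplified with SMART-Seq v4 before sequencing. The deposited table holds whole-number read counts per gene, which the authors made by trimming reads, aligning them with HISAT2 to GRCm38 and counting with HTSeq (names from the submitters' processing notes and the study's methods, with versions and the strand setting not given in the sources used here). Of 36 labelled samples 27 had a column, and the other 9 were not analysed here. All 27 were fitted as separate replicates. The labels name no mouse, so libraries of different groups may come from the same mouse, which the fit leaves out of account. The p-values weigh differences between groups against the spread between these libraries, taken as independent.

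Counts were fitted in edgeR 4.0.16 (R 4.3.3) with the quasi-likelihood test in 1 model of the 3 groups, with scaling by trimmed mean of M values, genes kept by filterByExpr at a minimum count of 10 (15330 of 52636) and Benjamini-Hochberg adjustment at 0.05. Reads from overlapping genes on opposite strands could not be told apart. Lengths and positions came from GENCODE M21, where 99.7% of the genes were found, and promoters from RefSeq. The fit was checked on simulated data of 14984 genes, where for PSCs against S100GFP+ cells 81.6% of 4-fold and 47.7% of 2-fold changes were recovered and 4.55% of calls were false. That simulation changed 200 genes, in PSCs only, and had no libraries that stood apart. In the data 47% of genes passed in this comparison, so the simulated shares do not measure the calls given here.

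The 38 genes and all lists were chosen with earlier results of these data known. Every member is named, and those past the test with a log2 change of at least 2 have their lowest, median and highest values given. Of the other exocytosis genes, up to 3 per list with the largest change between PSCs and S100GFP+ cells among those past the test are named. Alternatives were DESeq2 1.42.0, limma 3.58.1 with voom sample weights, other scalings and filters, the compared groups alone, a term for the Lars2, Gm23935 and Gm15564 share, and leaving out libraries.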

Additional observations from a re-analysis of the deposited data

Results flagged for a closer look

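In 75 groups of library values for the 25 tested genes, 4 had a library far from the others by Dixon's criterion, which chance gives in about 1 of 20 groups. Vamp3 was lowest in S100GFP+ library 1, at 62.1 CPM against 77.6 in the next library and a group median of 85.6. Stx4a was highest in NG2DsRed+ library 21, at 40.9 CPM against 35.1 in the next and a median of 32.8. PSC library 18, the library with the fewest genes with counts, was flagged in both remaining cases: Stxbp3 was lowest there, at 6.31 CPM against 23.2 in the next library and a median of 29.3, and Stxbp5 was highest there, at 46.4 CPM against 28.8 and a median of 22.2.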

How the results depend on the processing

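With each of the 27 libraries left out in turn, the number of members past the test ran from 13 to 17 for PSCs against S100GFP+ cells, 11 to 12 for PSCs against NG2DsRed+ cells and 13 to 16 between the single-labeled groups. Under the other alternatives it ran from 13 to 17, 11 to 13 and 14 to 19. The number of all genes past the test moved as well. With 1 library left out it ran from 6825 to 7918, 6315 to 7412 and 4617 to 5940, of 15088 to 15679 tested. Under the other alternatives it ran from 6052 to 16556, 6045 to 8264 and 5074 to 10586, of 13836 to 44705 tested. Of the single fold changes under those alternatives 592 kept their direction and side of the threshold, 33 newly passed, 27 no longer passed and 19 changed sign, 18 of them without passing the test. With 1 library left out 1894 kept theirs, 32 newly passed, 51 no longer passed and 45 changed sign, none of which passed. The sign change that passed was Stx2 for PSCs against S100GFP+ cells, at -0.83 with a term for the Lars2, Gm23935 and Gm15564 share, and the cause was not tested.

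The other sign changes against S100GFP+ cells were Syt15 (1.19 without S100GFP+ libraries 14, 17 and 22, and 1.12 without PSC library 18 as well, a fit chosen after seeing the data) and Stx12 (0.14 and 0.14 in those fits, 0.0076 unfiltered, 0.0089 in limma-voom, 0.13 with the share). Against NG2DsRed+ cells limma-voom gave 0.0785 for Stx2, 0.0067 for Stx4a and -0.14 for Stx6, the share term -0.0323 for Vamp7, -0.0005 for Stxbp3 and 0.12 for Stxbp5, and leaving out all 4 libraries 0.0119 for Stx4a. Between the single-labeled groups Stx2 was 0.0192 in limma-voom, and Stx3 was 0.0509 in DESeq2, 0.0505 with DESeq2 size factors and 0.0047 in the compared groups alone. With single libraries left out, the members that crossed 0 were Vamp3 (-0.0011 to 0.15), Stx2 (-0.0293 to 0.24) and Stx12 (-0.0588 to 0.0414) against S100GFP+ cells, Vamp7 (-0.0166 to 0.19), Stx2 (-0.25 to 0.058), Stx4a (-0.074 to 0.0495), Stx6 (-0.0422 to 0.13) and Stxbp3 (-0.0030 to 0.24) against NG2DsRed+ cells, and Syt2 (-0.0166 to 0.60) and Stx3 (-0.11 to 0.10) between the single-labeled groups.

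No single library changed a call of Syt9, Syt11, Stxbp2, Stx3, Stxbp6, Snap23 or Cplx2. Snap29 between the single-labeled groups was lost without S100GFP+ library 3 (adjusted p = 0.0517). No paired analysis was possible because the labels number each library once and name no mouse. Libraries of different groups may share a mouse, and how that bears on the p-values was not tested. Genes with a few counts per library, such as the 13 members below the filter, are limited by depth.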
